A study of Rattus norvegicus with 6 samples.

Results

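Prostanoids are short-lived lipid signals that a tissue makes on demand from arachidonic acid. The cyclooxygenases turn arachidonic acid into prostaglandin H2, a terminal synthase turns that into one product such as prostaglandin E2, prostacyclin, prostaglandin D2 or thromboxane, and each product acts on its own G protein-coupled receptors. In arteries the wall's main product is prostacyclin, which relaxes smooth muscle and restrains platelets, while thromboxane does the opposite. Here 10 genes of this system, 6 synthases (Ptgs1, Ptgs2, Ptges, Ptgis, Ptgds and Tbxas1) and 4 receptors (Ptger2, Ptger4, Ptgfr and Ptgir), were followed in rat aorta. They were taken as table rows whose array annotation gives exactly 1 gene symbol equal to one of these names, with the row of highest mean kept where a gene had several. All 10 were measured, among 14324 genes tested.

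The samples came from aortas of male Fisher 344 rats aged 1 to 2 months. Day 1 cultures were rings set in a collagen gel and grown without serum, in EBM medium, for 1 day, and day 0 rings were freshly cut and never cultured. Each group held 3 biological replicates, each a pool of 4 to 6 rings or cultures on its own whole-transcript array, and since nothing in the labels tells whether animals contributed to several pools, p-values reflect pool-to-pool spread, which may be technical. The labels name no drug, cytokine or genetic change in either group, a ring holds every cell type of the vessel wall, and the comparison asks what differs after 1 day in the gel. Array medians lay between 5.87 and 5.95 on the log2 scale, and precision is limited by the number of arrays. Values are deposited log2 expression values. Changes are day 1 minus day 0 in log2 units with the standard error (SE) of the fit (n = 3 per group), a fold is 2 raised to that change, and the threshold was a Benjamini-Hochberg adjusted p of 0.05 by limma over all genes tested. Levels of different genes on an array are not comparable and are not ranked. Where linear values of a marker list are summed, the genes with the highest values weigh most. Such a sum can differ in direction from the list's median and is no measure of cell number.

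Sequence just upstream of the start was taken from a set of RefSeq promoter windows (build GRCr8). The set used held an entry for 9 of the 10 genes and none for Ptgis. Windows are shown for the synthase gene with the largest fall and the one with the largest rise. The 250 bases before the start of Ptgs2 lie on the plus strand at chr13:64713813-64714062, and those before Ptges on the minus strand at chr3:34586988-34587237. Both are written 5′ to 3′ in the direction of the gene, with capitals marking matches to the motifs named after them.
Ptgs2: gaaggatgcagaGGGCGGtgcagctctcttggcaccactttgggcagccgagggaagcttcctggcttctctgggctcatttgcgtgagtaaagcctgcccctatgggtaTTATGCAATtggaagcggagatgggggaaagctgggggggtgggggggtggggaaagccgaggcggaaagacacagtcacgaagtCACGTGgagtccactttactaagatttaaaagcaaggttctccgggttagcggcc
Ptges: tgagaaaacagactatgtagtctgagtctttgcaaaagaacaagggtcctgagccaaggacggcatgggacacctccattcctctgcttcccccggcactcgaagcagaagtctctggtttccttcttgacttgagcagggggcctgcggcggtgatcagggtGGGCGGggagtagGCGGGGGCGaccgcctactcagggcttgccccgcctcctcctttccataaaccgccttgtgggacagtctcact

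A set of 8 motifs was searched on both strands. In Ptgs2 the matches were a GC box (GGGCGG) at -238, a C/EBP motif (TTNNGNAAT) at -140 and an E-box (CACGTG) at -55, counted back from the start. In Ptges they were a GC box at -87 and an Egr motif (GCGNGGGCG) at -74, with no overlap between them. Over 33469 rat promoter windows of the same length, 30.5% held the GC box, 10.9% the C/EBP motif, 5.59% the E-box and 4.29% the Egr motif. Among the 9 genes with an entry, the GC box was found in 4, the C/EBP motif in 2, and the E-box and the Egr motif in 1 each. The other motifs, a TATA box (TATAAA, 12.9% of windows), a cyclic AMP response half-site (TGACG, 18.2%), an AP-1 motif (TGANTCA, 6.34%) and an NF-kappaB motif (GGNNTTTCC, 5.19%), did not match in either printed window. Such matches describe letters, not bound sites.

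After 1 day in the gel, transcripts of both cyclooxygenases and of the prostacyclin and prostaglandin D2 synthases were lower, while the inducible prostaglandin E synthase and 3 of the 4 receptors were higher. By limma, 8 of the 10 genes passed the threshold, 4 higher and 4 lower on day 1, where 48.3% of all genes tested passed (27.6% higher and 20.7% lower). The arrays of the groups did not overlap for the same 8 genes, against 56.9% of all genes (31.4% higher and 25.5% lower on day 1). The background is high, so the count of calls says less than the direction and size of each gene's change. Of the 6 synthases 1 was higher and 4 were lower, with a median change of -0.87. Of the 4 receptors 3 were higher and 0 lower, with a median of 0.43, and the median over all genes was -0.01. The call of Ptger2 was lost without any 1 of 4 arrays. This contrast holds for the 10 genes only. Of 4 other receptors measured 0 were higher and 3 lower, and of 6 other synthesis enzymes 4 were higher and 1 lower. A change of at least 2-fold past the threshold was reached by Ptgs1, Ptgs2, Ptges and Ptgfr, against 8.24% of all genes. Ptgfr reached it narrowly, at 1.01 log2 units. Its change was 0.91 with quantile normalization and 0.94 to 1.09 with each array left out in turn.

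**Figure D1:**
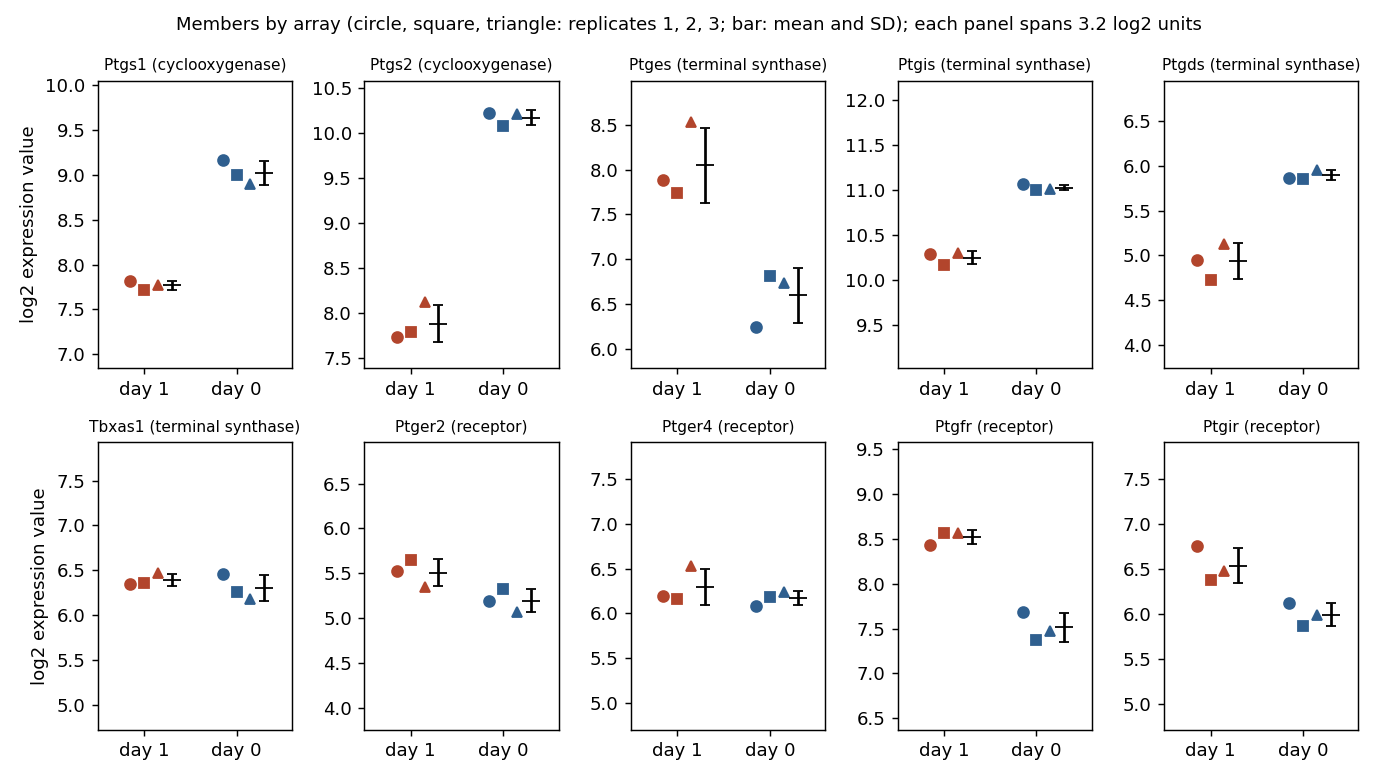
Deposited log2 expression value (vertical axes, each spanning 3.2 units at its own level) of the 10 genes in each array, with day 1 cultures in red and day 0 rings in blue. Symbols mark replicates 1 to 3, and the bar gives the mean and SD. The day 1 arrays sit wholly below the day 0 arrays for Ptgs1, Ptgs2, Ptgis and Ptgds and wholly above them for Ptges, Ptger2, Ptgfr and Ptgir.

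The cyclooxygenases are the committed step. Ptgs2, the inducible isozyme, stood at 7.73, 7.78 and 8.12 in the day 1 cultures, against 10.23, 10.08 and 10.22 in the day 0 rings. The highest cultured array lay almost 2 log2 units under the lowest fresh one. The change was -2.30 ± 0.11 (95% interval -2.55 to -2.04), that is, 4.91-fold lower in culture (adjusted p = 1.52e-06). Ptgs1, the isozyme that most cells express constantly, stood at 7.82, 7.72 and 7.77 in the day 1 cultures, against 9.17, 8.99 and 8.90 in the day 0 rings. Its groups did not overlap either, and the cultured arrays were the tighter ones (SD 0.05 on day 1 and 0.14 on day 0). Its change was -1.25 ± 0.08, or 2.38-fold lower (adjusted p = 8.19e-06).

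Of the isozymes, Ptgs2 had the larger change. The log2 difference Ptgs2 minus Ptgs1 within an array averaged 0.11 ± 0.22 in day 1 cultures and 1.15 ± 0.14 in day 0 rings (SD, n = 3 each). That is a change of -1.05 (95% interval -1.47 to -0.62). By an exact two-sided permutation test p was 0.1, the smallest that 3 arrays against 3 allow, and 0.15 after adjustment over the 6 pairs of genes compared.

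Terminal synthases went in different directions. Ptges, which encodes the inducible microsomal prostaglandin E synthase and is known as a partner of Ptgs2 in inflammation, stood at 7.88, 7.74 and 8.53 in the day 1 cultures, against 6.25, 6.81 and 6.73 in the day 0 rings. All cultured arrays were above all fresh ones, with day 1 replicate 3 the highest and day 0 replicate 1 the lowest. It rose by 1.45 ± 0.22 (95% interval 0.94 to 1.97), or 2.74-fold (adjusted p = 9.45e-04). This was the widest interval of the 10 genes. Leaving out day 1 replicate 3 gave a rise of 1.21 (adjusted p = 0.00152).

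Ptgis, the prostacyclin synthase, stood at 10.28, 10.16 and 10.29 in the day 1 cultures, against 11.06, 11.00 and 11.01 in the day 0 rings. The groups were apart and each was tight, with SDs of 0.07 on day 1 and 0.03 on day 0. The change was -0.78 ± 0.06, or 1.72-fold lower (adjusted p = 2.63e-05). A second row of Ptgis on the array ran the same way, with means of 5.74 ± 0.15 on day 1 and 6.34 ± 0.08 on day 0 (SD, n = 3 each) and a change of -0.60.

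Ptgds, the lipocalin-type prostaglandin D synthase, stood at 4.95, 4.73 and 5.13 in the day 1 cultures, against 5.87, 5.85 and 5.96 in the day 0 rings. The cultured arrays were all lower, by -0.96 ± 0.10, or 1.94-fold (adjusted p = 1.22e-04). Ptgds was dim, with day 1 values under every array median (5.87 to 5.95) and day 0 values close to those medians. Tbxas1, the thromboxane synthase, stood at 6.35, 6.36 and 6.47 in the day 1 cultures, against 6.46, 6.26 and 6.18 in the day 0 rings. These groups overlapped, and the difference of 0.09 ± 0.08 missed the threshold (adjusted p = 0.404). Its 95% interval, -0.10 to 0.29, leaves room for a rise of up to 1.22-fold.

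Within an array, Ptges minus Ptgis shifted by 2.23 (95% interval 1.42 to 3.04), a 4.7-fold shift of the ratio towards the prostaglandin E synthase. It averaged -2.20 ± 0.37 in day 1 cultures and -4.43 ± 0.34 in day 0 rings (SD, n = 3 each). Tbxas1 minus Ptgis shifted by 0.87 (95% interval 0.66 to 1.09), and for both ratios the exact two-sided permutation p was 0.1, adjusted 0.15. Ptgds minus Ptgis shifted by -0.18, with an interval that spans 0 (-0.42 to 0.07) and an exact permutation p of 0.2, adjusted 0.24. That last shift was -0.11 without day 1 replicate 2 and 0.02 with quantile normalization, so its sign is not settled.

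**Figure D2:**
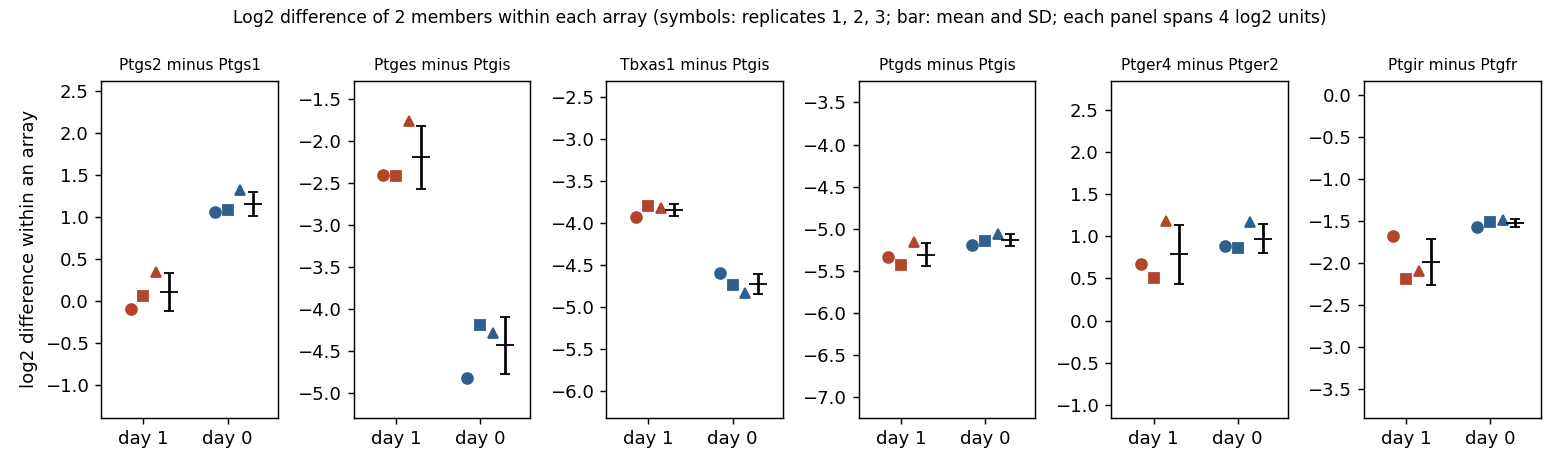
Log2 difference of 2 genes within each array (vertical axes, each spanning 4 log2 units), day 1 cultures in red and day 0 rings in blue, with the mean and SD beside the 3 replicates of each group. The level of a difference depends on the probes and only its shift between the groups is read. The widest shift is that of Ptges minus Ptgis, at 2.23.

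Among the receptors, 3 rose and Ptger4 missed the threshold. Ptgfr, the receptor of prostaglandin F2alpha, which couples to calcium release and contraction, stood at 8.43, 8.56 and 8.57 in the day 1 cultures, against 7.69, 7.38 and 7.48 in the day 0 rings. The groups were well apart. It rose by 1.01 ± 0.09 (95% interval 0.80 to 1.22), or 2.01-fold (adjusted p = 4.84e-05). Ptgir, the prostacyclin receptor, which raises cyclic AMP and relaxes smooth muscle, stood at 6.76, 6.38 and 6.48 in the day 1 cultures, against 6.12, 5.86 and 5.99 in the day 0 rings. All cultured arrays were higher, and the rise was 0.55 ± 0.11, or 1.46-fold (adjusted p = 0.00422). Transcripts of the prostacyclin receptor and of the prostacyclin synthase therefore differed in opposite directions.

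Ptger2 and Ptger4 encode the prostaglandin E2 receptors EP2 and EP4, which raise cyclic AMP. Ptger2 stood at 5.53, 5.65 and 5.35 in the day 1 cultures, against 5.20, 5.33 and 5.06 in the day 0 rings. The lowest cultured array was barely above the highest fresh one, and the rise of 0.31 ± 0.10, or 1.24-fold, passed the threshold narrowly (adjusted p = 0.0333). The call was lost on leaving out day 1 replicate 1 (0.30, adjusted p = 0.0822), day 1 replicate 2 (0.24, adjusted p = 0.106), day 0 replicate 1 (0.31, adjusted p = 0.073) or day 0 replicate 3 (0.25, adjusted p = 0.105). Ptger2 was dim, with its values in both groups under every array median (5.87 to 5.95). The array carries 2 rows of Ptger2, which hold identical values. Ptger4 stood at 6.20, 6.16 and 6.53 in the day 1 cultures, against 6.08, 6.19 and 6.23 in the day 0 rings. The groups overlapped, and the difference of 0.13 ± 0.10 missed the threshold (adjusted p = 0.359, 95% interval -0.12 to 0.37).

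Receptors were compared in pairs as well. Ptgir minus Ptgfr shifted by -0.46 within arrays (95% interval -0.90 to -0.02), with an exact two-sided permutation p of 0.1, adjusted 0.15. Ptger4 minus Ptger2 shifted by -0.19 (95% interval -0.81 to 0.44, exact permutation p = 0.5, adjusted 0.5). It was -0.05 without day 1 replicate 2, -0.38 without day 1 replicate 3 and -0.09 without day 0 replicate 3. The interval is wide enough to hold a clear difference in either direction.

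**Figure D3:**
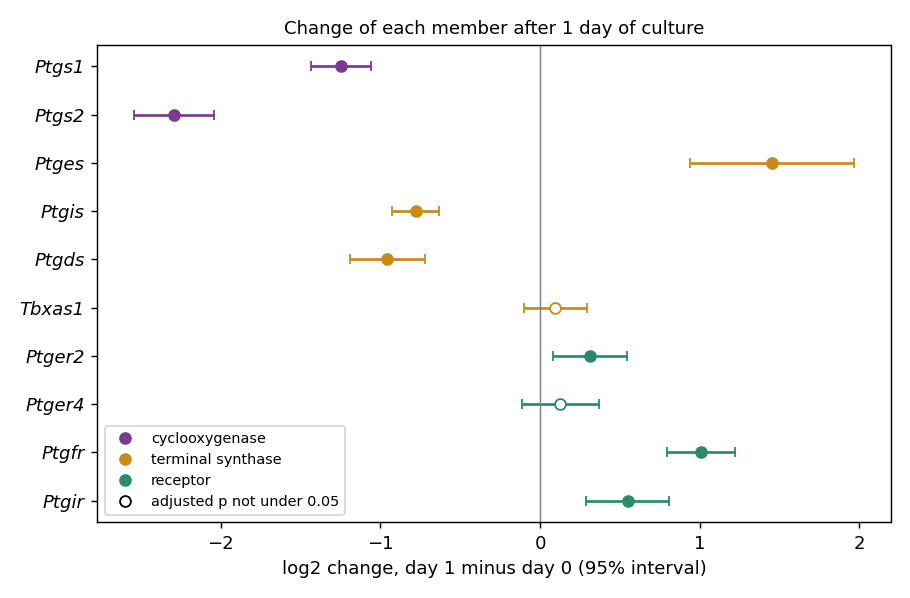
Log2 change, day 1 minus day 0 (horizontal axis), of the 10 genes with 95% intervals from limma, coloured by role. Filled points passed an adjusted p of 0.05. Ptgs1, Ptgs2, Ptgis and Ptgds lie below 0, Ptges and 3 receptors lie above it, and the intervals of Tbxas1 and Ptger4 span 0.

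Within the day 1 group, replicate 3 was the highest of the 3 arrays for 7 of the 10 genes, among them Ptgs2, Ptges and Ptger4, whereas it was the highest for 29.2% of all genes. Within the day 0 group, replicate 1 was the highest for 6 of the 10, against 38.1% of all genes. Apart from Ptger2, no gene of the set crossed the threshold when any single array was left out.

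The genes whose values ran most like those of Ptges over the 6 arrays were Cxcl2, a neutrophil-attracting chemokine, Sh2b2, Angptl8, the adhesion molecule gene Icam1 and the C-type lectin gene Clec4d. Likeness was the root mean square distance of values centred on each gene's own mean, and these distances were 0.18 to 0.23 log2 units. For Ptgs2 the nearest were Ccdc65, Pdzd2, the matrix proteoglycan gene Aspn, the small chaperone gene Cryab and the insulin-like growth factor binding protein gene Igfbp5, at 0.06 to 0.12. Under a distance of 0.2 lay 51 genes for Ptgs2 and 1 for Ptges. With 2 groups of 3 arrays this measure reflects the size of the day difference and the spread within each group. That spread was wider for Ptges (SD 0.42 on day 1 and 0.31 on day 0) than for Ptgs2 (0.21 and 0.08). The counts of near genes are therefore not comparable between these members.

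The remaining prostanoid receptors were read from a separate list. Counts for this list and the lists that follow stand beside 27.6% of all genes higher and 20.7% lower, and no list was tested. Of 4 measured, 0 rose and 3 fell, with a median change of -0.62. Tbxa2r, the thromboxane receptor, which contracts smooth muscle, stood at 6.59, 5.96 and 6.43 in the day 1 cultures, against 8.72, 8.71 and 8.58 in the day 0 rings. The groups were far apart, and it fell by 2.34 ± 0.15 (adjusted p = 7.42e-06). Ptger3, the prostaglandin E2 receptor EP3, which lowers cyclic AMP, was at -0.88 ± 0.09 (adjusted p = 8.77e-05), and Ptger1, the receptor EP1, at -0.37 ± 0.09 (adjusted p = 0.00852). Ptgdr2 was at -0.21 ± 0.10 and missed the threshold (adjusted p = 0.122), and Ptgdr was not analysed here. Among the 4 receptors of prostaglandin E2, then, Ptger2 rose, by a call that was lost without any 1 of 4 arrays. Ptger1 and Ptger3 fell, and Ptger4 did not pass the threshold. These receptors were dim. Ptger2 (means 5.51 on day 1 and 5.20 on day 0) and Ptger1 (5.41 and 5.78) lay under every array median (5.87 to 5.95). Ptger3 did so on day 1 (mean 5.22), and its day 0 mean was 6.10.

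Of 6 other synthesis enzymes measured, 4 rose and 1 fell, none by 2-fold (median 0.32). Cbr1, a carbonyl reductase that can turn prostaglandin E2 into prostaglandin F2alpha, rose by 0.58 ± 0.06 (adjusted p = 1.01e-04). The constitutive prostaglandin E synthases rose as well, Ptges3 by 0.47 ± 0.07 (adjusted p = 8.61e-04) and Ptges2 by 0.32 ± 0.08 (adjusted p = 0.0133). The rise of Ptges itself was 1.45, and the difference between these rises was not tested. Hpgds, the prostaglandin D synthase of mast cells and macrophages, fell by 0.50 ± 0.17 (adjusted p = 0.0448), with groups that overlapped.

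Of 13 measured genes that release arachidonic acid or store it, 6 rose and 5 fell (median 0.16). The monoacylglycerol lipase gene Mgll, which frees arachidonic acid from an endocannabinoid, was at -1.59 ± 0.08 (adjusted p = 2.28e-06), and the secreted phospholipase gene Pla2g2d at -1.08 ± 0.20 (adjusted p = 0.00264). Acsl4, which activates arachidonic acid for storage in phospholipids, was at 1.19 ± 0.06 (adjusted p = 1.85e-06), and Mboat7, which puts it into phosphatidylinositol, at 1.15 ± 0.09 (adjusted p = 2.29e-05). Other phospholipase genes of the list, named after their values were seen, moved both ways. Pla2g15 rose by 0.61 and Pla2g6 by 0.33 (adjusted p = 0.000211 and 0.00294). Plaat3 was at -0.79 and Pla2g5 at -0.69 (adjusted p = 1.28e-05 and 0.000396). Pla2g4a, the cytosolic phospholipase that feeds the cyclooxygenases, was named after its values were seen and was at -0.38 ± 0.08 (adjusted p = 0.005).

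Among 8 breakdown and transport genes 3 rose and 2 fell (median -0.11). Ptgr1, a reductase of 15-keto prostaglandins, stood at 7.61, 7.46 and 7.59 in the day 1 cultures, against 5.59, 5.46 and 5.43 in the day 0 rings. Its groups were about 2 log2 units apart, a rise of 2.06 ± 0.07 (adjusted p = 3.65e-07). The prostaglandin transporter gene Slco2a1 rose by 0.71 ± 0.07 (adjusted p = 7.67e-05). Ptgfrn, which encodes an inhibitor of the prostaglandin F2alpha receptor, fell by 0.72 ± 0.06 (adjusted p = 3.97e-05), and Slco3a1 by 0.47 ± 0.08 (adjusted p = 0.00151). Hpgd, the dehydrogenase that inactivates prostaglandins, was named after its values were seen, stood at -0.23 ± 0.17 and missed the threshold (adjusted p = 0.313).

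The list of inducers and transcription factors known to act on Ptgs2 and Ptges held 17 measured genes, of which 8 rose and 5 fell (median 0.29). By at least 2-fold, 4 rose and 3 fell, and only the genes of largest change are named. Il1r1, the receptor through which interleukin-1 induces both, was at 2.74 ± 0.07 (adjusted p = 8.25e-08). The immediate early factors were lower, Fos at -4.05 ± 0.15 (adjusted p = 4.45e-07), Jun at -1.85 ± 0.07 (adjusted p = 4.82e-07) and Egr1 at -1.64 ± 0.09 (adjusted p = 3.72e-06).

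**Figure D4:**
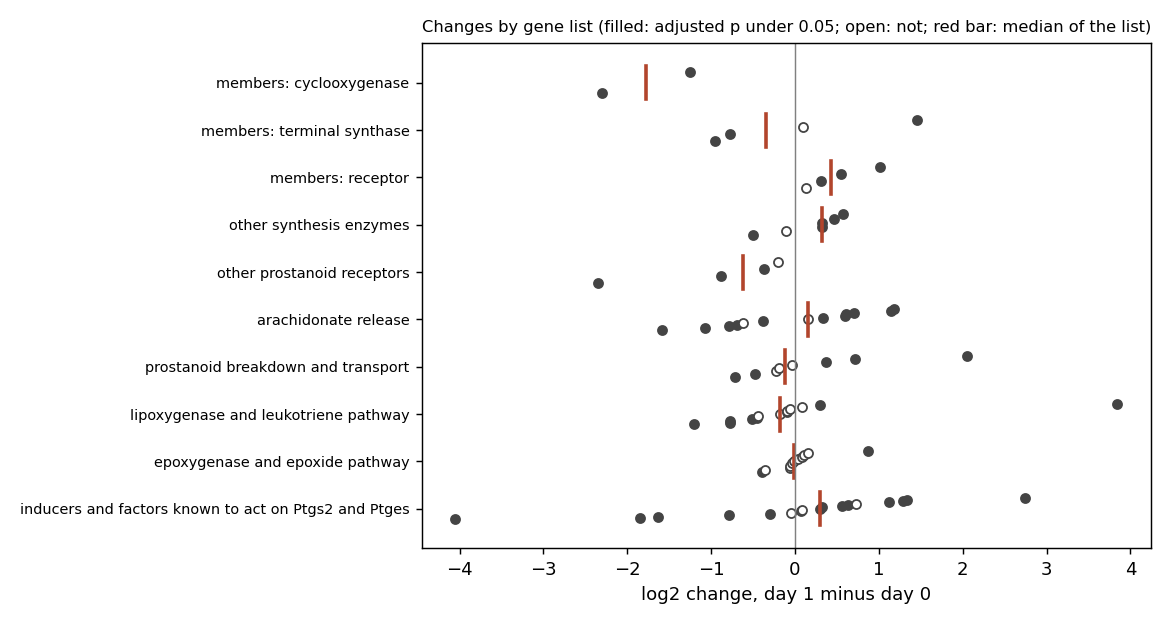
Log2 change, day 1 minus day 0 (horizontal axis), of the 10 genes by role and of every measured gene in 7 related lists. Filled points passed an adjusted p of 0.05, and the red bar is the median of the list. The 4 receptors followed have a median of 0.43 and the other prostanoid receptors one of -0.62.

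Prostanoid genes are not expressed alike by the cells of the wall, and in bulk samples fewer cells of a type and less RNA per cell cannot be told apart. Marker counts stand beside the same shares, 27.6% of all genes higher and 20.7% lower. The calponin gene Cnn1, a marker of contractile smooth muscle, stood at 6.89, 6.94 and 6.75 in the day 1 cultures, against 12.56, 12.59 and 12.61 in the day 0 rings. Smooth muscle, a source of prostacyclin synthase in the media, had 0 of 7 measured markers higher and 7 lower (median -2.82), and their summed linear values were 3143 to 3532 in day 1 cultures and 28566 to 29475 in day 0 rings. Among the genes followed, Ptgs1, Ptgs2, Ptgis and Ptgds were lower too, whereas Ptges, Ptger2, Ptgfr and Ptgir were higher. Tbxas1 and Ptger4 missed the threshold. Of the other prostanoid receptors measured, Tbxa2r, Ptger3 and Ptger1 were lower and Ptgdr2 missed the threshold. Macrophage markers, of a cell type rich in Ptgs1, Ptges and Tbxas1, were higher in 3 of 8 and lower in 2 (median 0.05, summed 4342 to 4772 in day 1 cultures and 2975 to 3147 in day 0 rings), with Cd68 at 1.70 ± 0.06 and Csf1r at -0.46 ± 0.08. Endothelial markers were higher in 4 of 6 and lower in 2 (median 0.32, summed 1840 to 2004 on day 1 and 1979 to 2232 on day 0), and fibroblast markers were higher in 3 of 6 and lower in 3 (median -0.15, summed 20879 to 22369 in day 1 cultures and 18459 to 20151 in day 0 rings). The part of cell makeup in these changes was not tested.

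Markers of cells that could bring prostanoid enzymes from blood or fat were also followed. Platelet markers, of the cells richest in thromboxane synthase, were higher in 1 of 3 and lower in 1 (median -0.27, summed 376 to 406 in day 1 cultures and 227 to 251 in day 0 rings). The higher one was Pf4, at 1.05 ± 0.07. The lower one, Ppbp, was named after its values were seen and was at -0.27 ± 0.07. Gp9, at -0.27 ± 0.12, missed the threshold (adjusted p = 0.0969 by limma). Mast cell markers were higher in 1 of 7 and lower in 3 (median -0.16, summed 260 to 284 in day 1 cultures and 183 to 240 in day 0 rings). The higher one was Kit, at 1.65 ± 0.07, and the largest fall was that of the mast cell protease gene Mcpt1l1, at -1.44 ± 0.19. None of 5 neutrophil markers passed in limma, nor was any at an unadjusted p under 0.05 (median -0.01, summed 114 to 119 in day 1 cultures and 117 to 129 in day 0 rings). Values of all these markers, and of the 4 lymphocyte markers below, lay under every array median (5.87 to 5.95). A change in such dim genes could be missed. Adipocyte markers were lower in 4 of 5 (median -0.66, summed 211 to 254 in day 1 cultures and 333 to 385 in day 0 rings), lymphocyte markers lower in 1 of 4 (median -0.12, summed 63 to 69 in day 1 cultures and 76 to 84 in day 0 rings) and Schwann cell markers lower in 1 of 3 (median -0.16, summed 342 to 375 in day 1 cultures and 643 to 731 in day 0 rings). Mesothelial and lymphatic markers were higher in 1 of 5, Pdpn at 2.84 ± 0.06, and lower in 1, Lyve1 at -2.05 ± 0.08 (median -0.17, summed 1618 to 1700 in day 1 cultures and 659 to 687 in day 0 rings).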

How the data were processed

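Per the labels' protocols, 200 ng of total RNA per pool was biotin-labelled for Affymetrix whole-transcript arrays. The deposited table holds log2 expression values for 27342 rows and 6 arrays, and the log2 scale was read from the values, which reach 14.16. Background correction, normalization and genome build are not given in the sources used; limma is named in the submitters' processing notes.

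Rows were named through the array annotation, with symbols updated to RefSeq (GRCr8, 15067 of 15097 rows by gene ID), and the row of highest mean was kept per gene. The group difference was fitted over 14324 genes with lmFit and eBayes of limma 3.58.1 (R 4.3.3), two-sided, without block or filter. Ratios of paired genes were compared by exact permutation in scipy 1.17.1. The 10 genes, the 7 pathway and 11 marker lists, the 6 pairs and the motifs were chosen with earlier results of these data known. All 10 genes are named, with the 5 genes nearest in pattern to the largest rise and to the largest fall. Each pathway list is described by its counts and its genes of largest change: up to 4 past the threshold, with the largest against the majority. For marker lists the largest rise and fall could be named. The alternatives were other normalization, filters, row choice, variance models, array weights, the replicate block and each array left out. Same-numbered arrays did not deviate together (correlations 0.01 to 0.04), so numbers were not taken as pairs.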

Additional observations from a re-analysis of the deposited data

How the results depend on the processing

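Ptgs1, Ptgs2, Ptges, Ptgis, Ptgds, Ptgfr and Ptgir kept their direction and stayed past the threshold under every alternative that could be run for them, and Tbxas1 and Ptger4 stayed short of it. No gene of the 10 reversed. Ptger2 lost its call without any 1 of 4 arrays, as given with its values (changes of 0.24 to 0.39 over the 6 arrays left out in turn). Without genes under the median mean, 5 of the 10 (Ptgds, Tbxas1, Ptger2, Ptger4 and Ptgir) were removed by the filter, so 2 genes of the set were called higher in place of 4, and 13 genes of the pathway lists lower in place of 22. Over all genes, 1844 were lower with that filter and 4483 with every row as a feature, in place of 2968, since the number of features tested differs. With quantile normalization the difference in change was 1.00 for Tbxas1 minus Ptgis, in place of 0.87, and 0.0192 for Ptgds minus Ptgis, in place of -0.18, which turned its direction; the cause was not tested. With the replicate block 3815 genes were higher and 2871 lower, and 4 genes of the set were higher and 4 lower, as without it. Log2 values of dim rows understate folds.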

Other observations

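The other branches of arachidonic acid metabolism were read from lists of the same kind, again beside 27.6% of all genes higher and 20.7% lower. Of 13 measured genes of the lipoxygenase and leukotriene pathway 2 rose and 5 fell (median -0.18). Alox5, the lipoxygenase that starts leukotriene synthesis, stood at 5.68, 5.60 and 5.44 in the day 1 cultures, against 6.79, 6.81 and 6.72 in the day 0 rings. Its groups were apart, and it fell by 1.20 ± 0.08 (adjusted p = 7.99e-06 by limma). Its activating protein gene Alox5ap fell by 0.78 ± 0.08 (adjusted p = 1.37e-04) and the leukotriene C4 synthase gene Ltc4s by 0.78 ± 0.06 (adjusted p = 2.86e-05). Against the majority, Mgst2, a microsomal glutathione transferase that can also make leukotriene C4, stood at 9.47, 9.65 and 9.47 in the day 1 cultures, against 5.37, 5.77 and 5.92 in the day 0 rings. This rise of 3.84 ± 0.14 (adjusted p = 3.79e-07), or 14.4-fold, was the largest change in any direction but that of Fos among the 72 measured genes of the 7 lists.

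In the epoxygenase and epoxide list 1 of 11 genes rose and 1 fell (median -0.01). The cytochrome P450 gene Cyp2j4 rose by 0.87 ± 0.07 (adjusted p = 2.65e-05), and the epoxide hydrolase gene Ephx1 fell by 0.39 ± 0.13 (adjusted p = 0.0403).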
